A study of Mus musculus with 4 samples.

Results

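Ret, the signalling receptor of the GDNF family ligands, was examined together with its 4 Gfra co-receptors and the 4 ligands in sorted mouse retinal interneurons. The members were taken by symbol: Ret, Gfra1, Gfra2, Gfra3, Gfra4, Gdnf, Nrtn, Artn and Pspn. All 9 genes were on the array, with 16 of the 34945 probe sets that the platform annotation assigns to exactly 1 gene. The family was selected on the large difference in Ret intensity between MP amacrine and MP bipolar arrays, which was already known, so the members' levels and differences are given as a description, with no test.

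The study sorted neurons that carry CFP from the MP transgene out of papain-dissociated retinas at postnatal day 6. MP amacrine cells were CFP-positive and bound VC1.1, an antibody that marks amacrine but not bipolar cells. MP bipolar cells were CFP-positive and VC1.1-negative, and were collected after the VC1.1-positive cells had been removed on a magnetic column, a step that the labels give for the bipolar sort only. All mice were offspring of MP-carrier males and non-carrier females on a mixed C57Bl6 x CD1 background. The labels do not give the promoter of the MP transgene. The 2 biological replicates of a group came from separate litters, about 1000 cells each, and every replicate was hybridised to 1 Affymetrix array after 2 rounds of RNA amplification.

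GDNF family ligands are secreted dimers that bind a Gfra co-receptor, a protein held in the membrane by a lipid anchor. The ligand and co-receptor together engage Ret, a receptor tyrosine kinase, which then recruits adaptors that feed the ERK and PI3-kinase pathways. Each ligand has a preferred co-receptor: GDNF binds Gfra1, neurturin (Nrtn) binds Gfra2, artemin (Artn) binds Gfra3 and persephin (Pspn) binds Gfra4. In the mouse retina Ret is known from ganglion, horizontal and amacrine cells.

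The values are probe set intensities on a linear scale in arbitrary units, and the median probe set of an array had an intensity between 44.5 and 47.2. Intensities of different probe sets cannot be set against each other, so each probe set is compared with itself between groups and with the array median. The sums over marker lists below are weighted toward their brightest probe sets, and each is compared only with itself between arrays. Differences are of log2(intensity + 16), MP amacrine minus MP bipolar, which understates the difference of dim probe sets, and their SE comes from a limma fit over all 34945 probe sets. Limma called 8 of 10 tested amacrine markers toward MP amacrine cells and 0 toward bipolar cells (adjusted p under 0.05). It called 8 of 9 tested bipolar markers toward MP bipolar cells and 0 toward amacrine cells. Over all tested genes the shares were 6.54% toward amacrine and 6.92% toward bipolar cells. Neurod6, Tfap2b, Tfap2c, Snhg11, Fezf2, Car8 and Grik1 were tested only through the group where they are high. The marker lists were chosen with earlier results known, so these counts describe the groups and do not test their labels. MP amacrine replicate 2 stood apart in its Gapdh control probe sets, where the log2 signal of the 3-prime end exceeded that of the 5-prime end by 3.21, against 1.78 on MP amacrine replicate 1 and 1.95 on MP bipolar replicate 1, with MP bipolar replicate 2 about as low. In RNA from pools of sorted cells, more expressing cells and more RNA per cell cannot be told apart.

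Ret was measured by 2 probe sets, and both read higher on each amacrine array than on either bipolar array. Probe set 1436359_at, designed on an expressed sequence tag, had intensities of 3234 and 2801 on the MP amacrine arrays, against 21.6 and 19.3 on the MP bipolar arrays. The amacrine arrays were far above their array medians and the bipolar arrays below theirs. The group means were 3018 ± 306 in MP amacrine cells and 20.5 ± 1.63 in MP bipolar cells (SD, n = 2 each), a difference of 6.38 (SE 0.16). Probe set 1421359_at, designed on the RefSeq transcript, had intensities of 168 and 132 on the MP amacrine arrays, against 45.8 and 51.8 on the MP bipolar arrays. The bipolar values of this probe set lay at about the array median, and its difference was 1.35 (SE 0.21). The 2 probe sets therefore had the same direction and very unequal differences. By its probe set with the highest mean, Ret ranked 3 among the 11583 tested genes by positive difference, and it passed the filter on dim probe sets only through the amacrine arrays. The rank was 32 when all probe sets of a gene were averaged, with a Ret difference of 3.86.

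**Figure D1:**
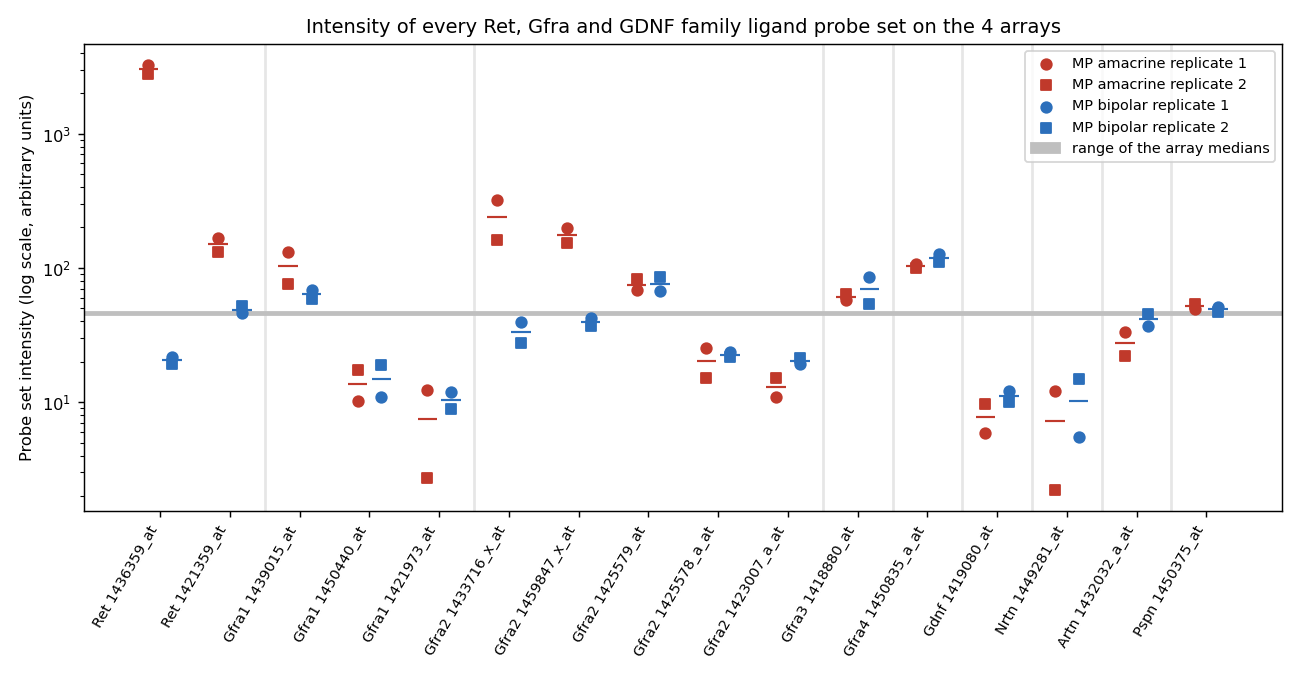
Intensity of each of the 16 probe sets (log axis, arbitrary units) on the 2 MP amacrine arrays (red) and the 2 MP bipolar arrays (blue), with group means as short lines and the range of the array medians as a grey band. The Ret probe set 1436359_at reads 3234 and 2801 in MP amacrine cells, against 21.6 and 19.3 in MP bipolar cells, and the ligand probe sets lie near or below the grey band in both groups.

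The 6 tested genes whose profile over the 4 arrays was nearest to that of Ret were Lhfp, Neurod6, Ebf3, Ebf1, Nhlh2 and Crabp1. Likeness was the Euclidean distance between log2 profiles, each centred on its own mean. Lhfp, a tetraspan membrane protein gene, was nearest, at a distance of 0.0931. It had intensities of 4002 and 3657 on the MP amacrine arrays, against 28.8 and 27.5 on the MP bipolar arrays. Neurod6, the transcription factor in the title of the series, followed at a distance of 0.313. The distances of the transcription factors Ebf3, Ebf1 and Nhlh2 were 0.447, 0.602 and 0.835. That of Crabp1, a retinoic acid binding protein, was 0.841. With 4 arrays in 2 groups, such a distance mostly reflects a group difference of similar size. All 6 genes but Crabp1 lay below the array median on both bipolar arrays, so those genes were tested only through the amacrine arrays.

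Ganglion and horizontal cells, the other retinal types known for Ret, were followed by their markers. Of 7 tested ganglion cell markers, 0 were called toward MP amacrine cells and 1, the surface protein gene Thy1, toward MP bipolar cells. The summed intensity of the 11 ganglion cell markers on the array was 3990 and 2004 on the MP amacrine arrays, against 2934 and 3800 on the MP bipolar arrays, which overlapped. Without Thy1, a sum chosen after seeing the data, the sums of the other 10 markers no longer overlapped. They were 3184 and 549 on the MP amacrine arrays, against 472 and 385 on the MP bipolar arrays. Most of the sum on MP amacrine replicate 1 was Nefm (1631) and Nefl (1102), which read 136 and 87.5 on MP amacrine replicate 2. The neurofilament genes Nefm (3.13) and Nefl (2.23) and the ganglion cell factor Pou4f1 (1.08) had positive differences that were not called (limma adjusted p 0.0528 to 0.169). Slc17a6 (0.30) was also positive, while the neurofilament gene Nefh (-0.49) and Isl2 (-0.05) were negative, and none of them was called. Of the markers too dim to be tested, Chrnb3, Rbpms and Pou4f3 had lower means in MP amacrine cells and Sncg a higher one. Of 3 tested horizontal cell markers, 1, the tropomyosin gene Tpm3, was called toward MP amacrine cells and 0 toward bipolar cells. The summed intensity of the 7 horizontal cell markers on the array was 2663 and 1950 on the MP amacrine arrays, against 1091 and 992 on the MP bipolar arrays. Most of each sum was Tpm3, which read 1828 and 1371 on the MP amacrine arrays, against 734 and 733 on the MP bipolar arrays. No marker was listed at 0, and the ganglion cell factor Pou4f3 lay between 1.56 and 2.82 on all 4 arrays. From 3.06% to 3.62% of the probe sets of an array read 1 or less, so a low listed value need not mean signal.

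Some of these markers differed widely between the amacrine replicates, in both directions, and the examples were chosen after their values were seen. Nefm read 1631 and 136 on the MP amacrine arrays, against 47.7 and 35.0 on the MP bipolar arrays. The calcium-binding protein gene Calb1 read 517 and 39.5 on the MP amacrine arrays, against 19.2 and 17.0 on the MP bipolar arrays. The horizontal cell factor Lhx1 read 51.2 and 3.79 on the MP amacrine arrays, against 10.6 and 9.52 on the MP bipolar arrays. These 3 were much lower on MP amacrine replicate 2 than on MP amacrine replicate 1. Both Ret probe sets had the same order, with 3234 and 2801 for 1436359_at and 168 and 132 for 1421359_at. Whether ganglion or horizontal cells add to the Ret values was not tested. Thy1 and the horizontal cell factor Onecut2 had the other order. Thy1 read 806 and 1455 on the MP amacrine arrays, against 2462 and 3415 on the MP bipolar arrays. Onecut2 read 191 and 453 on the MP amacrine arrays, against 263 and 172 on the MP bipolar arrays. Of 8 tested Müller glia markers, 4 were called toward MP amacrine cells and 0 toward bipolar cells. The share of all tested genes called toward amacrine cells was 6.54%. The called markers were Vim, Hes5, Slc1a3 and Dkk3, with Hes5 and Slc1a3 tested only through the amacrine arrays. Apoe (1.65), Rlbp1 (1.30) and Glul (0.17) were positive and Clu (-0.84) negative, none of them called. The summed intensity of the 12 Müller glia markers was 4834 and 4616 on the MP amacrine arrays, against 2244 and 2789 on the MP bipolar arrays. Vim alone read 1672 and 1518 on the MP amacrine arrays, against 108 and 233 on the MP bipolar arrays. Of 8 tested vascular and microglial markers, 2 were called toward MP amacrine cells, the pericyte receptor Pdgfrb (1.89) and the macrophage receptor Csf1r (1.11), and 0 toward bipolar cells. Pdgfrb lay below the array median on both bipolar arrays, so it was tested only through the amacrine arrays. Their summed intensity over 12 genes was 1390 and 3966 on the MP amacrine arrays, against 1752 and 577 on the MP bipolar arrays, which overlapped. Of 9 tested photoreceptor markers, 1 was called in each direction, Gnat2 (1.15) toward amacrine and Crx (-0.97) toward bipolar cells. Their summed intensity over 11 genes was 12650 and 7909 on the MP amacrine arrays, against 9871 and 11312 on the MP bipolar arrays, which also overlapped. The part of any of these cells in the members' values was not tested.

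Gfra2, the neurturin co-receptor, was the co-receptor with the largest difference, and its 5 probe sets did not have the same pattern. Probe set 1433716_x_at had intensities of 318 and 161 on the MP amacrine arrays, against 39.5 and 27.4 on the MP bipolar arrays, a difference of 2.31 (SE 0.38). Probe set 1459847_x_at had intensities of 197 and 154 on the MP amacrine arrays, against 42.6 and 36.8 on the MP bipolar arrays, a difference of 1.78 (SE 0.21). On both of these probe sets the groups did not overlap, and the bipolar arrays lay below the array median, so they passed the filter only through the amacrine arrays. The array's maker marks with the suffix x probe sets whose probes can also match other transcripts, and the annotation gives no source sequence for either of them.

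The other three Gfra2 probe sets did not read higher in amacrine cells. Probe set 1425579_at had intensities of 67.8 and 82.1 on the MP amacrine arrays, against 67.2 and 85.8 on the MP bipolar arrays, above the array median throughout and overlapping, with a difference of -0.02 (SE 0.21). Probe sets 1425578_a_at and 1423007_a_at lay below the median on all 4 arrays, with differences of -0.10 (SE 0.19) and -0.33 (SE 0.14). With the x-suffixed and s-suffixed probe sets left out, an alternative chosen after seeing the data, 1425579_at stood for the gene and the Gfra2 difference of 2.31 became -0.02. The direction of Gfra2 was therefore not settled by these arrays.

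Gfra1, the GDNF co-receptor, had 1 probe set above the array median and 2 well below it. Probe set 1439015_at had intensities of 132 and 76.0 on the MP amacrine arrays, against 68.8 and 59.0 on the MP bipolar arrays. The groups did not overlap, but the amacrine arrays differed from each other by more than the lower of them differed from the bipolar arrays. The difference was 0.55 (SE 0.30), and it was 0.21 without MP amacrine replicate 1 and 0.89 without MP amacrine replicate 2. Probe sets 1450440_at and 1421973_at had intensities between 2.71 and 19.0 on the 4 arrays, overlapped between groups and had differences of -0.06 (SE 0.21) and -0.19 (SE 0.23).

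Gfra3 and Gfra4, the co-receptors of artemin and persephin, had 1 probe set each, above the median on all 4 arrays. Gfra3 had intensities of 57.8 and 64.05 on the MP amacrine arrays, against 84.9 and 53.7 on the MP bipolar arrays, which overlapped, with a difference of -0.13 (SE 0.25). Gfra4 had intensities of 107 and 99.8 on the MP amacrine arrays, against 127 and 111 on the MP bipolar arrays. The Gfra4 groups did not overlap, but the difference of -0.17 (SE 0.18) was smaller than its SE.

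The ligands were dim or near the array median in both groups. Gdnf had intensities of 5.91 and 9.71 on the MP amacrine arrays, against 12.1 and 10.1 on the MP bipolar arrays, with a difference of -0.19 (SE 0.12). Nrtn, the preferred ligand of Gfra2, had intensities of 12.2 and 2.22 on the MP amacrine arrays, against 5.53 and 15.0 on the MP bipolar arrays, with a difference of -0.19 (SE 0.29). Both ligands were below the array median on every array, and the spread between replicates of Nrtn was larger than its difference between groups. Artn had intensities of 33.3 and 22.1 on the MP amacrine arrays, against 37.2 and 45.6 on the MP bipolar arrays, with a difference of -0.40 (SE 0.21). Only MP bipolar replicate 2 lay above its array median for Artn. Pspn had intensities of 49.6 and 54.1 on the MP amacrine arrays, against 50.9 and 47.2 on the MP bipolar arrays, just above the median on each array and overlapping, with a difference of 0.06 (SE 0.17). The table carries no detection calls, so whether such dim probe sets measured any transcript is unknown.

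**Figure D2:**
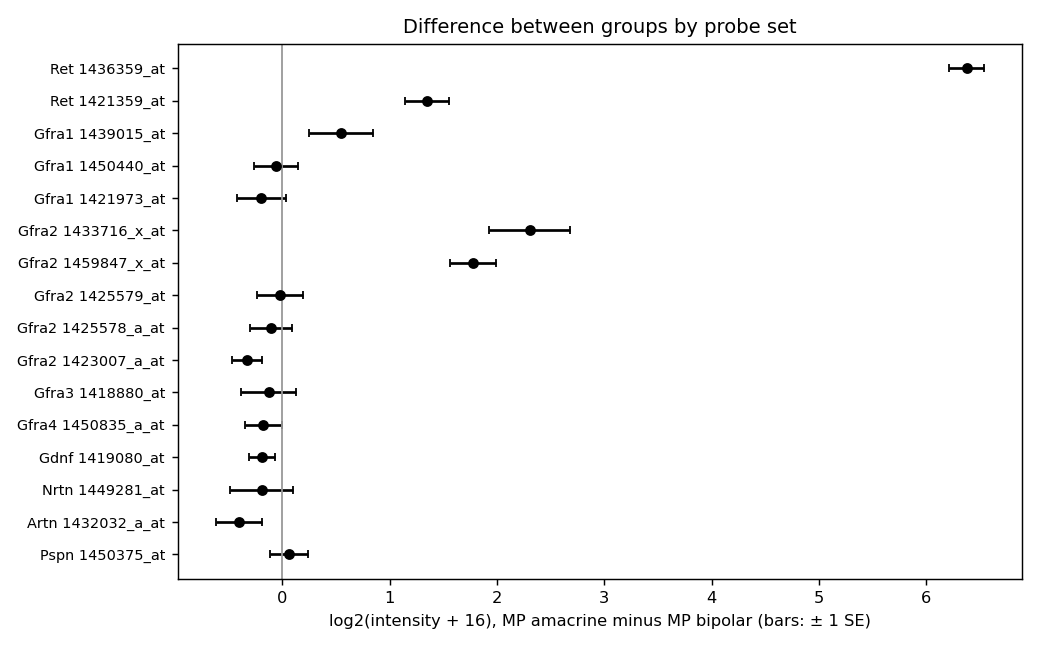
Difference in log2(intensity + 16), MP amacrine minus MP bipolar, for each of the 16 probe sets, with bars of 1 SE from the limma fit over all probe sets (n = 2 arrays per group). Both Ret probe sets, at 6.38 and 1.35, and the 2 x-suffixed Gfra2 probe sets, at 2.31 and 1.78, stand to the right of the other 12, which lie between -0.40 and 0.55.

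Over the 16 probe sets, 5 had both amacrine arrays above both bipolar arrays, 4 had both below, and 7 overlapped. Among all 34945 probe sets, 21.5% had the first order, 23.8% the second and 45.3% either one. The 5 in the first order were the Ret pair, Gfra1 1439015_at and the 2 x-suffixed Gfra2 probe sets, and on each of them MP amacrine replicate 1 read higher than MP amacrine replicate 2, the array with the larger Gapdh end difference. The part of RNA quality in these values was not tested. The 4 in the second order were Gfra2 1423007_a_at, Gfra4, Gdnf and Artn, all with a difference smaller than 0.5 in size. Of the 9 genes, 6 passed the filter on dim probe sets, Ret and Gfra2 among them only through the amacrine arrays, and no member is given a call.

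The genes that act around Ret were described from 4 lists, with calls from the limma fit over all 11583 tested genes at an adjusted p under 0.05. In that fit 13.5% of the tested genes were called, and 6.54% of the tested genes were called toward MP amacrine cells and 6.92% toward MP bipolar cells, and the median difference of all tested genes was -0.03. Those shares are 758 and 801 genes, which without MP bipolar replicate 2 came down to 501 and 416.

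Among adaptors and regulators known to bind Ret or to act just downstream of it, 7 of 27 tested genes were called toward MP amacrine cells and 1 toward MP bipolar cells. The median difference of the list was 0.17. Shank3, a scaffold protein, had intensities of 116 and 112 on the MP amacrine arrays, against 9.27 and 11.7 on the MP bipolar arrays, a difference of 2.30 (SE 0.20, limma adjusted p = 2.17e-04). Irs1, an insulin receptor substrate that also serves as a Ret adaptor, had intensities of 265 and 350 on the MP amacrine arrays, against 60.4 and 66.1 on the MP bipolar arrays, a difference of 2.02 (SE 0.23, limma adjusted p = 8.14e-04). The groups were well apart for both genes, but Shank3 lay below the median on both bipolar arrays and so entered the test only through the amacrine arrays, where it is high. The adaptor Grb10 followed with a difference of 1.72 (SE 0.28), and had intensities of 288 and 362 on the MP amacrine arrays, against 115 and 64.8 on the MP bipolar arrays.

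The other called adaptors had smaller differences. They were the receptor tyrosine phosphatase Ptprf (1.09), the Cbl-interacting endocytic adaptor Sh3kbp1 (0.98) and the PI3-kinase subunits Pik3r1 (0.93) and Pik3ca (0.76), with limma adjusted p between 0.0170 and 0.0424. The transcription factor Stat3 was the gene of this list higher in MP bipolar cells, with a difference of -0.93 (limma adjusted p = 0.0390). Its 3 other probe sets above the filter had differences of -0.73, -0.21 and 0.005. The last of them read 143 and 165 on the MP amacrine arrays, against 164 and 143 on the MP bipolar arrays. The Shc adaptors Shc1, Shc2, Shc3 and Shc4, the main docking proteins of Ret, were all too dim to be tested, as were Dok1, Dok4 and Dok5. Grb2 (0.14), the phosphatase Ptpn11 (0.10) and the ubiquitin ligase Cbl (0.16) were tested and not called. The Stat3 call was lost in 6 of 14 alternatives, among them quantile scaling (limma adjusted p = 0.0510, and 0.0199 to 0.293 over all 14). Irs1 and Shank3 were the calls of this list left with the mean of a gene's probe sets, and also without a filter on dim probe sets. Leaving out 1 array ended several calls of this list in limma, in fits where 1 group held a single array and took its spread from the other group. Without MP amacrine replicate 2, 5 genes were called and Pik3ca, Pik3r1 and Ptprf were not (adjusted p 0.0505 to 0.133). Without MP bipolar replicate 1, 4 were called and Pik3ca, Pik3r1, Sh3kbp1 and Stat3 were not (adjusted p 0.0568 to 0.228). Without MP bipolar replicate 2, 3 were called and Ptprf was lost too (adjusted p 0.1001 to 0.215 over the 5 lost genes). Without MP amacrine replicate 1, 7 were called and Stat3 was not (adjusted p = 0.0971). Irs1, Shank3 and Grb10 were called in each of these 4 fits of 1 array against 2.

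Other receptors and binding partners of the ligands had 3 of 12 tested genes called toward MP amacrine cells and 0 toward MP bipolar cells, with a median difference of 0.06. Gas1, a lipid-anchored protein related in structure to the Gfra co-receptors, had the largest difference. Its intensities were 1857 and 1599 on the MP amacrine arrays, against 52.7 and 49.8 on the MP bipolar arrays, a difference of 4.69 (SE 0.22, limma adjusted p = 1.70e-05). The groups were far apart, and a 2nd Gas1 probe set above the filter also read higher in amacrine cells, with 285 and 280 on the MP amacrine arrays, against 148 and 128 on the MP bipolar arrays, a difference of 0.96 (SE 0.16). Nrp1, a receptor for semaphorins and VEGF, had intensities of 755 and 736 on the MP amacrine arrays, against 194 and 138 on the MP bipolar arrays, a difference of 2.08 (SE 0.24, limma adjusted p = 9.36e-04). Its 3 other probe sets above the filter were also higher in amacrine cells, by 1.09 to 1.48. The Nrp1 probe set with a difference of 1.44 read 26.6 and 27.4 on the MP bipolar arrays, below the median. That probe set was therefore above the filter only through the amacrine arrays, where it is high.

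Itgav, the integrin alpha V subunit, had intensities of 1589 and 1734 on the MP amacrine arrays, against 227 and 373 on the MP bipolar arrays, a difference of 2.45 (SE 0.26, limma adjusted p = 5.83e-04). Its other probe set above the filter read 47.2 and 35.7 on the MP amacrine arrays, against 43.1 and 45.7 on the MP bipolar arrays, a difference of -0.08, and Itgav was not called when the probe sets of a gene were averaged. The adhesion molecule Ncam1, which can bind GDNF without Ret, was bright and close in the groups, at 2969 ± 314 in MP amacrine cells and 2601 ± 231 in MP bipolar cells (SD, n = 2 each), a difference of 0.19 (SE 0.13). The heparan sulfate proteoglycan Sdc3, another Ret-independent receptor, had a difference of 0.20 (SE 0.20). Neither was called. All 3 calls of this list held in the same 4 fits with an array left out.

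**Figure D3:**
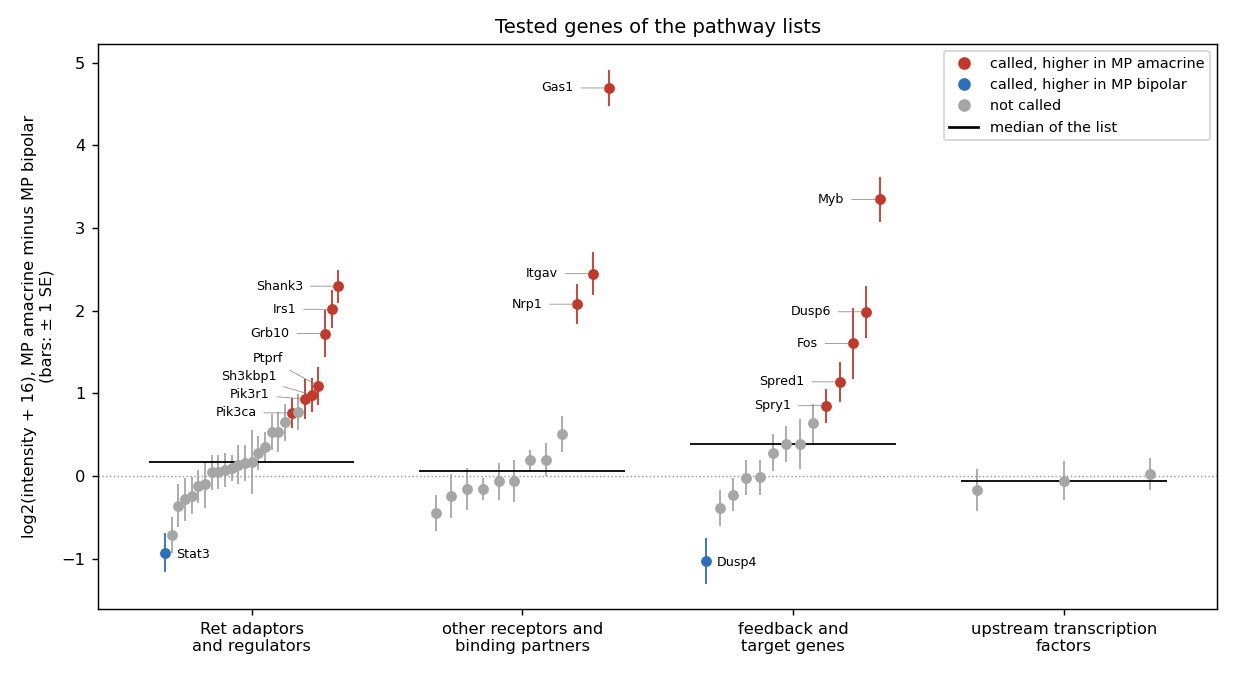
Difference in log2(intensity + 16), MP amacrine minus MP bipolar, of each tested gene of the 4 pathway lists, with bars of 1 SE, called genes in red (higher in MP amacrine) or blue (higher in MP bipolar) and named, and the median of each list as a black line. Gas1 (4.69) and Myb (3.35) are the highest points, and the list medians lie between -0.05 and 0.39.

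Feedback and target genes of Ret and ERK signalling had 5 of 14 tested genes called toward MP amacrine cells and 1 toward MP bipolar cells, with a median difference of 0.39. Myb, a transcription factor, had intensities of 683 and 1064 on the MP amacrine arrays, against 76.1 and 63.4 on the MP bipolar arrays, a difference of 3.35 (SE 0.27, limma adjusted p = 1.51e-04). This Myb probe set also has the suffix x, and a 2nd one without it gave 2.58 (SE 0.29). That 2nd probe set read 7.32 and 20.6 on the MP bipolar arrays, below the median, so it was above the filter only through the amacrine arrays. Dusp6, the phosphatase that removes activating phosphates from ERK, had intensities of 288 and 332 on the MP amacrine arrays, against 43.6 and 96.9 on the MP bipolar arrays, a difference of 1.99 (SE 0.31, limma adjusted p = 0.00428). The groups did not overlap for either gene.

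The feedback inhibitors Spred1 (1.14, SE 0.24) and Spry1 (0.85, SE 0.21) and the immediate early gene Fos (1.60, SE 0.43) were also higher in MP amacrine cells, with limma adjusted p between 0.0168 and 0.0465. Fos varied within both groups, at 1628 and 2894 on the MP amacrine arrays, against 1131 and 436 on the MP bipolar arrays. Its call was lost in 9 of 14 alternatives, among them a pseudocount of 1 (limma adjusted p = 0.0534), quantile scaling (0.0594), median scaling (0.0628) and no intensity trend (0.0761), with a range of 4.01e-04 to 0.223 over all 14. Dusp4, another phosphatase of the ERK pathway, was higher in MP bipolar cells, with a difference of -1.03 (SE 0.27, limma adjusted p = 0.0450). Its call was lost in 5 of 14 alternatives, among them quantile scaling (limma adjusted p = 0.0617) and median scaling (0.0625), with a range of 0.0114 to 0.329 over all 14. Without a filter on dim probe sets Myb was the 1 call left in this list. Spry2 (0.64), Egr1 (0.39) and Etv4 (0.38) were tested and not called, and Etv5 and Spry4 were too dim to be tested. Without MP amacrine replicate 2, limma called 2 genes of this list, Myb and Dusp6, and the other four had an adjusted p of 0.0613 to 0.203. Without MP bipolar replicate 2 it called the same 2, with 0.0717 to 0.329 for the others. Without MP bipolar replicate 1 Spred1 and Spry1 were lost (adjusted p 0.0824 and 0.131), and without MP amacrine replicate 1 Spry1 was lost (adjusted p = 0.0563).

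Transcription factors known to act upstream of Ret in other tissues, such as enteric neurons, motor neurons and kidney, gave no call. Of 13 with a probe set, 3 were tested, and limma called 0, with 0 at an unadjusted p under 0.05. Gata2, the brightest of them, had intensities of 140 and 212 on the MP amacrine arrays, against 212 and 181 on the MP bipolar arrays, which overlapped (difference -0.17, SE 0.26). The other 10, among them Sox10, Gata3, Runx1 and Hand2, were too dim to be tested.

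**Figure D4:**
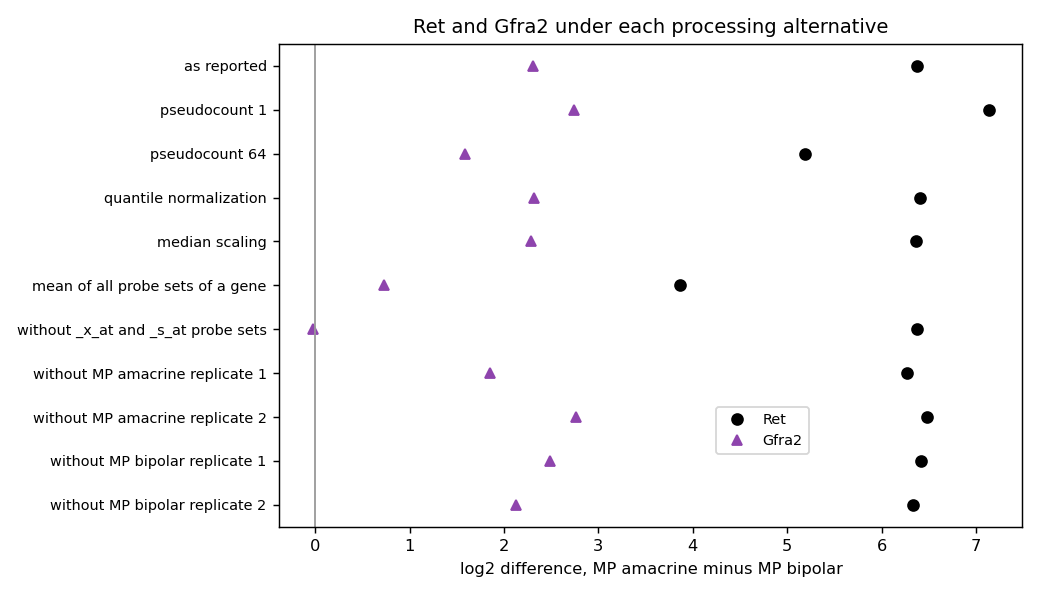
Difference between MP amacrine and MP bipolar cells of Ret (black circles) and Gfra2 (purple triangles) as reported and under 10 alternative ways of processing the arrays. Ret lies between 3.86 and 7.13 throughout, while Gfra2 lies between -0.02, without x-suffixed and s-suffixed probe sets, and 2.76.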

How the data were processed

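RNA of 4 samples was measured on 1 array each. The authors deposited a linear intensity for every probe set of each array. Their software, background correction and scaling are not stated in the sources at hand. The intensities were used as deposited, as log2(intensity + 16).

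Of 45101 probe sets, 64 controls were left out. By the platform annotation 34945 probe sets belong to 1 gene, 932 to several and 9160 to none. Of 18193 genes, 18032 identifiers were found in a RefSeq table, which changed 0 symbols. The probe set with the highest mean stood for a gene, and a gene was tested when it lay above the array median on at least 2 of the 4 arrays (11583 genes). Groups were compared in R 4.3.3 with limma 3.58.1 (lmFit and eBayes with trend, 2 residual degrees of freedom), two-sided, with Benjamini-Hochberg adjustment over all tested genes. The steps were tested on simulated data. Samples were grouped by their titles. The precision is limited by having 2 arrays in a group.

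The members, the 4 lists and the cell type markers were chosen with earlier results of these data known. Named were all members, up to 8 called genes per list by size of the difference, or the brightest gene where none was called, and the 6 genes nearest to Ret. The cell type markers, Ncam1, Sdc3 and the uncalled list genes were named beyond this rule, after their values were seen. Some list genes had no probe set of their own and were not analysed here. The alternatives were pseudocounts of 1 and 64, quantile and median scaling, the mean of a gene's probe sets, no filter, a filter at the 75th percentile, no intensity trend, the replicate number as a block, every probe set tested on its own, each array left out, and, added after seeing the data, the omission of x-suffixed and s-suffixed probe sets and of Thy1 from the ganglion cell sum. No sequence or coordinate was printed, since no genome build is named in the files.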

Additional observations from a re-analysis of the deposited data

How the results depend on the processing

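The Ret difference of 6.38 was 7.13 with a pseudocount of 1, 5.19 with a pseudocount of 64 and 3.86 with the mean of its probe sets, and 6.27 to 6.48 with each array left out. Ret ranked 3 among tested genes under every alternative that gave a rank except the mean of probe sets. The Gfra2 difference turned to -0.0202 without x-suffixed and s-suffixed probe sets, as the alternative's construction fixes, since another probe set then stood for the gene. Over the 8 alternatives that recomputed single probe sets, 9 of all 128 probe set values changed sign. The 4 probe sets of Ret and Gfra2 with a difference above 1 gave 32 of 32 positive values. The groups did not overlap on these 4, so a pseudocount or a left-out array could not turn their sign. Genes higher in MP amacrine cells numbered 758, and 400 without a filter, and genes higher in MP bipolar cells 801, and 385 without a filter. The fit without a filter held 18193 genes, against 11583, and why the counts fell was not tested. With each array left out these counts ran from 501 to 763 and from 416 to 1176, the lowest of both without MP bipolar replicate 2. Calls among adaptors fell to 2, against 8, with the mean of probe sets and also without a filter, and ran from 3 to 7 with each array left out. Calls among feedback and target genes fell to 1, against 6, without a filter, and ran from 2 to 5 with each array left out. The cause was not tested. Calls among other receptors stayed at 3 except for 2 with the mean of probe sets. Of the 17 named genes called, 5 (Irs1, Shank3, Gas1, Nrp1 and Myb) were called under every gene-level alternative in which they were tested (13 or 14), and none of the 17 changed sign. Shank3 was among the genes left untested by the stricter intensity filter. The bipolar-direction calls, Stat3 among adaptors and Dusp4 among feedback genes, were both lost under quantile scaling, and Dusp4 under median scaling. Fits that leave out an array set 1 array against 2, with the spread taken from the other group.

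With the replicate number as a replicate block, 916 and 1016 genes were called in the 2 directions, and 8, 3 and 6 in the lists of adaptors, other receptors and feedback genes. The deviations of same-numbered arrays had a Pearson correlation of -0.04 across genes, which are not independent replicates, and the labels do not say that a number marks a shared litter, so the numbers were not taken to pair the samples. With 2 arrays per group and no detection calls, values near or below the array median have no settled order.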
